A study of Mus musculus with 12 samples.

Results

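Pericytes and vascular smooth muscle cells, together called mural cells, were followed through 10 of their marker genes in RNA of FACS-sorted astrocytes. These came from the cerebral cortex of mice of the C57BL/6J strain, wild type in genotype. The 10 genes were taken by symbol from the 15774 genes of the deposited counts, all 10 were found there, and all 10 passed the filter on low counts. Stroke consisted of a permanent ligation of the distal middle cerebral artery with 7 min of occlusion of both common carotid arteries. Libraries were made 1, 3, 7, 21 and 60 days later, and sham mice received skull surface lesions only. Each of the 6 groups has 2 libraries, the sort marker and any pooling of mice are not stated, and the time of the sham samples is not given. Because nothing says that the 2 libraries of a group came from separate animals, the p-values measure only the spread between these samples, which may be technical.

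Mural cells sit on the outer face of the vessel wall, pericytes along capillaries and smooth muscle cells around arterioles and arteries. Endothelial PDGF-B recruits and keeps them through the receptor PDGFRβ, Notch3 signalling maintains the arterial smooth muscle state, and an ATP-sensitive potassium channel sets the resting potential of pericytes. After brain injury PDGFRβ also marks fibroblasts of the meninges and of the perivascular space, which lay down scar matrix, so that this receptor alone does not identify a pericyte. The 10 markers were therefore read in 4 groups by role. Pdgfrb and Anpep, the gene of the ectopeptidase CD13, are shared with fibroblasts or other cells. Rgs5, Kcnj8, Abcc9 and Vtn are pericyte genes, Notch3 and Heyl form the Notch axis of mural cells, and Myh11 and Tagln encode contractile proteins of smooth muscle.

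The promoters of Kcnj8 and Abcc9 are shown because both genes encode subunits of the same pericyte channel, lie next to each other and had their highest mean on day 1. Vtn is shown because it rose at every time, and Rgs5 because it passed the test at no time. Each stretch runs 5′ to 3′ on the strand of its gene, with 250 bases before and 50 bases after the start of the gene, and comes from RefSeq on GRCm38.p6. Kcnj8 covers chr6:142571565-142571864 and Abcc9 chr6:142702225-142702524, both on the minus strand, and Vtn covers chr11:78498870-78499169 and Rgs5 chr1:169655251-169655550, both on the plus strand. Capitals in Kcnj8, Abcc9 and Vtn mark TGGGAA, the core letters bound by the Notch partner RBPJ, or its reverse complement TTCCCA. Capitals in Rgs5 mark TAAACA, the reverse complement of the forkhead core TGTTTA.
Kcnj8: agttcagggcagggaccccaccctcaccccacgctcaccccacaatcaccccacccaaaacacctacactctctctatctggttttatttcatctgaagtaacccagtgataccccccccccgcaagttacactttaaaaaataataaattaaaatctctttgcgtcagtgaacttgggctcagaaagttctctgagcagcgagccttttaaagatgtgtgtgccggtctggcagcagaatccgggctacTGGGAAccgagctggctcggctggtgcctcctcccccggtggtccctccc
Abcc9: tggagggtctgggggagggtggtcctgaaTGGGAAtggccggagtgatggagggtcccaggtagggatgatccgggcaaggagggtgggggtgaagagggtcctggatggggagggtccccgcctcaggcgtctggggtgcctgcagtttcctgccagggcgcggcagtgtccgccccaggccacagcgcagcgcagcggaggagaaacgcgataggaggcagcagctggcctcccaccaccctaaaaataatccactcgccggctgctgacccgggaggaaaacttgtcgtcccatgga
Vtn: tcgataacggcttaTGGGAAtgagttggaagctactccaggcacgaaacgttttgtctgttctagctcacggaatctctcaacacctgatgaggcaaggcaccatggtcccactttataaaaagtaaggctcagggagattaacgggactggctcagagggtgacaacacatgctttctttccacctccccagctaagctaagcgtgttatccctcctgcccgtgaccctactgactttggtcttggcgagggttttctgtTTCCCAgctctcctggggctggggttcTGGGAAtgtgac
Rgs5: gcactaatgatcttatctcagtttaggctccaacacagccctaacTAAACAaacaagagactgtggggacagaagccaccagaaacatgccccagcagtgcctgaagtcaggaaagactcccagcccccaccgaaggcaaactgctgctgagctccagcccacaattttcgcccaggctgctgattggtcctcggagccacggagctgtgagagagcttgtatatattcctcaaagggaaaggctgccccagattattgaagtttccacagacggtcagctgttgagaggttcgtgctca
RefSeq promoters were at hand for 6 of the 10 genes, these 4 with Notch3 and Anpep. Both strands were searched for the CArG box, the site of serum response factor, and for TGGGAA and the forkhead core TGTTTA. Added to these were the AP-1 letters TGANTCA and the hypoxia element core ACGTG. The letters TGGGAA occurred 1 time in Kcnj8, 1 time in Abcc9 and 3 times in Vtn, and 25.6% of 32851 mouse promoters of the same length hold it. TGTTTA occurred 1 time in Rgs5, against 13.4% of all promoters, and ACGTG 2 times in Notch3, against 19.6%. The CArG box was in none of the 6 windows, against 1.63% of all promoters, and likewise TGANTCA, against 7.81%. These matches describe letters only.

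The first replicate of a group had 13006008 to 16575045 counts and the second 97056596 to 156128922. Levels are CPM, counts set against the TMM-scaled library total, a log2 fold change is given ± its standard error, and a gene is said to rise or fall at a Benjamini-Hochberg adjusted p under 0.05 over 15635 genes in edgeR's quasi-likelihood test. The 10 astrocyte markers took 0.956% and 0.737% of the counts in the sham libraries and 0.179% and 0.0979% on day 7. They were detected in every group, and their summed share was lowest on day 7. On that day 1 of the 10 rose and 8 fell, beside 23.2% and 19.8% of all tested genes. Mean levels were 217 CPM for Aldoc, 457.5 for Gfap and 562 for Gja1, against 5261, 168 and 117 in sham. The 8 oligodendrocyte lineage markers took 1.02% and 0.870% of the counts in sham. The 13 fibroblast markers, led by collagens, took 0.0143% and 0.0185% in sham, 0.266% and 0.340% on day 1, 0.811% and 2.55% on day 3, 8.77% and 20.5% on day 7, 3.22% and 4.97% on day 21, and 2.05% and 2.72% on day 60. From day 3 on they took more counts than the astrocyte markers in each library. The 12 endothelial markers took 0.930% and 0.683% on day 1, 0.495% and 0.130% on day 3 and 0.0679% to 0.310% in the other libraries. No fibroblast, endothelial or astrocyte marker was at 0 in both libraries of a group. In bulk RNA, fewer cells of a type and less RNA per cell cannot be told apart.

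The replicates of day 3 differed in these genes. Replicate 1 was over 3-fold above replicate 2 for 6 of the 10 markers, by 4.12-fold for Rgs5, 5.95-fold for Kcnj8, 5.47-fold for Abcc9, 9.04-fold for Notch3, 3.35-fold for Heyl and 4.10-fold for Myh11. In the other 5 groups no marker was over 3-fold higher in replicate 1. The endothelial markers were 3.82-fold higher in the same day 3 library and the fibroblast markers stood at 0.318 of replicate 2. Values of these 6 genes on day 3 are therefore given with and without replicate 1 where a call rests on it. The part of vessel material in the gap was not tested.

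**Figure D1:**
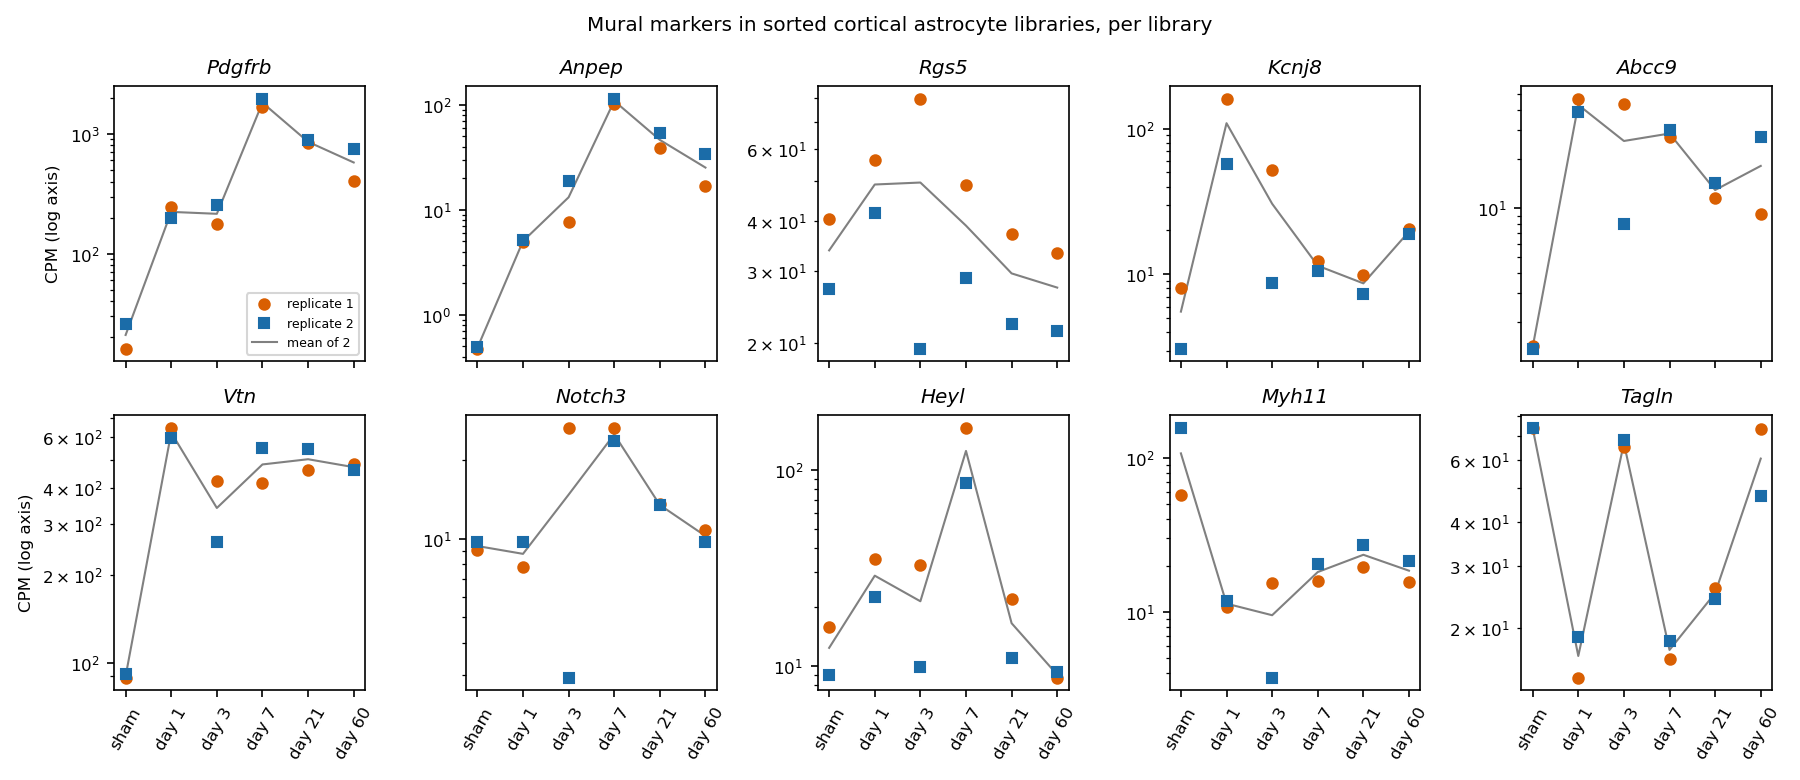
Level of each of the 10 mural markers in CPM on a log axis, by group from sham to day 60, with a circle for replicate 1, a square for replicate 2 and a line through the mean of the 2. Pdgfrb and Anpep peaked on day 7, Kcnj8 on day 1, Rgs5 stayed between 19.4 and 79.9 CPM, and Myh11 was below both sham libraries in each stroke library.

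Among the 10 markers, 5 rose and 2 fell on day 1, against 30.5% of all tested genes called in either direction. On day 3, 5 rose and 1 fell (32.2% of all genes called), on day 7, 5 rose and 2 fell (43.0%), on day 21, 4 rose and 2 fell (33.2%), and on day 60, 4 rose and 1 fell (31.5%). The median log2 fold change of the 10 was 2.01 on day 1, 1.36 on day 3, 1.92 on day 7, 0.59 on day 21 and 0.98 on day 60, and that of all tested genes lay between 0.01 and 0.16. Pdgfrb, Anpep, Abcc9 and Vtn rose at all 5 times, Myh11 fell at all 5, and Rgs5 and Notch3 were called at none. With the replicate number as a block, 6 rose and 2 fell on day 1 and 5 rose and 1 fell on day 60. The 5 comparisons share the sham libraries and are not independent of each other.

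Pdgfrb, the receptor for PDGF-B (chr18:61045150-61085061, plus strand, mm10), was above sham from day 1 on and highest on day 7. It stood at 16.1 and 25.8 CPM in sham, 247 and 199.8 on day 1, 176 and 255 on day 3, 1665 and 1974 on day 7, 836 and 882 on day 21, and 404 and 751 on day 60. Each stroke library was above both sham libraries, and day 7 was above every other library. The log2 fold change over sham was 3.41 ± 0.45 on day 1 (adjusted p = 0.00137), 3.36 ± 0.45 on day 3 (adjusted p = 0.000757) and 6.44 ± 0.52 on day 7 (adjusted p = 3.99e-05). It was 5.36 ± 0.49 on day 21 (adjusted p = 9.19e-05) and 4.78 ± 0.48 on day 60 (adjusted p = 0.000137). Pdgfrb was thus 86.8-fold above sham on day 7 and 27.5-fold above it on day 60.

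Anpep encodes CD13, an ectopeptidase of pericytes that fibroblasts and myeloid cells also carry (chr7:79821803-79861059, minus strand). Its levels were 0.478 and 0.491 CPM in sham, 4.89 and 5.17 on day 1, 7.66 and 18.7 on day 3, 103 and 115 on day 7, 39.1 and 53.5 on day 21, and 16.8 and 33.7 on day 60. It followed the same order as Pdgfrb from day 7 on, with day 7 highest and both day 60 libraries far above sham. The log2 fold change over sham was 3.37 ± 0.52 on day 1 (adjusted p = 0.00246), 7.80 ± 0.62 on day 7 (adjusted p = 3.91e-05) and 5.70 ± 0.57 on day 60 (adjusted p = 0.000132). Days 3 and 21 gave 4.76 ± 0.55 and 6.57 ± 0.59. Without replicate 2 of the day, the value was 3.89 on day 3 and 5.10 on day 60, and both still passed (adjusted p = 0.00115 and 0.000597). Fibroblast markers moved with both genes, since 12 of the 13 rose at each of the 5 times, with a median log2 fold change of 4.10 on day 1 and 9.70 on day 7. The exception was Dpt, which was called at no time. Of all tested genes, 16.7% to 23.2% were called higher at these 5 times. The part of fibroblast RNA in the rise of Pdgfrb and Anpep was not tested.

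**Figure D2:**
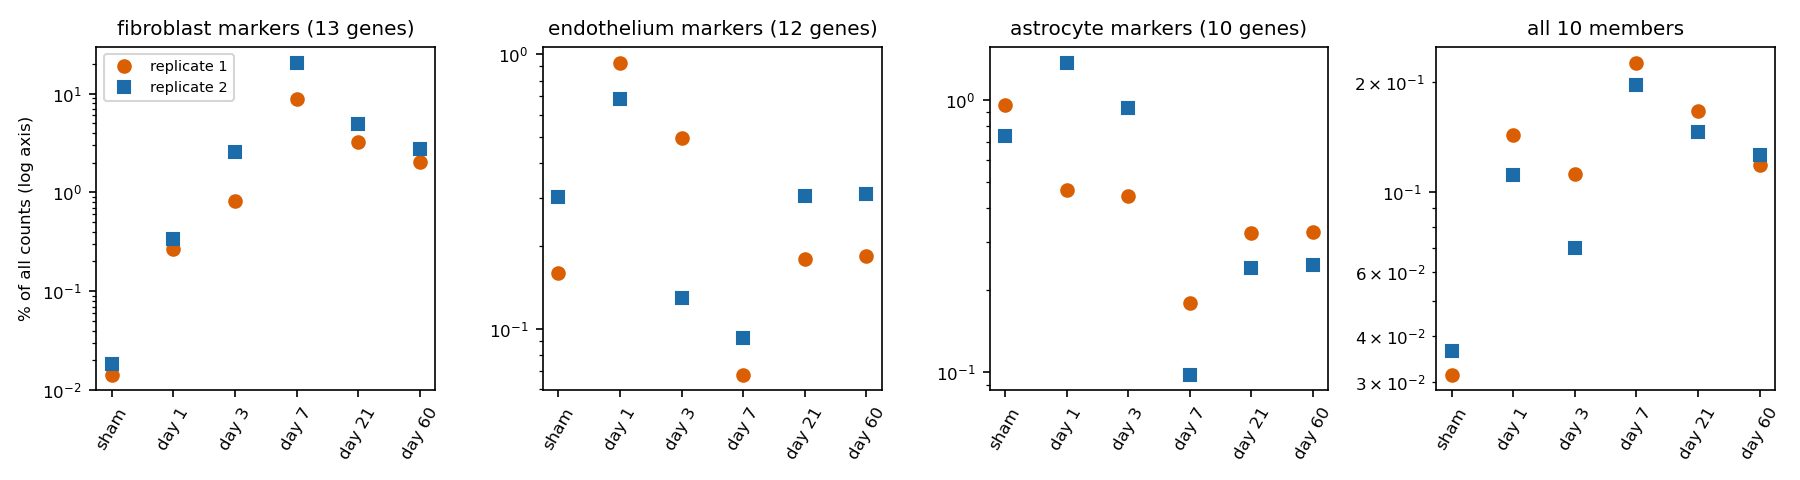
Share of all counts, in percent on a log axis, taken by 13 fibroblast, 12 endothelial and 10 astrocyte markers and by all 10 mural markers, by group and replicate. The fibroblast share peaked on day 7 with 8.77% and 20.5%, where the astrocyte share was lowest, and the endothelial share peaked on day 1.

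Rgs5, a regulator of G-protein signalling and one of the most used pericyte markers (chr1:169655501-169695813, plus strand), did not pass the test at any time. Its levels were 40.4 and 27.2 CPM in sham, 56.4 and 41.8 on day 1, 79.9 and 19.4 on day 3, 48.8 and 28.9 on day 7, 37.0 and 22.3 on day 21, and 33.3 and 21.4 on day 60. Both day 1 libraries lay above both sham libraries, and the other times overlapped with sham. The log2 fold change over sham was 0.54 ± 0.60 on day 1 (adjusted p = 0.522), 0.20 ± 0.60 on day 7 (adjusted p = 0.809) and -0.30 ± 0.60 on day 60 (adjusted p = 0.731). On day 3 it was 0.55 ± 0.60 (adjusted p = 0.509) and, without replicate 1, -0.85 ± 0.54 (adjusted p = 0.286). With the replicate block the standard errors were smaller and Rgs5 again passed at no time. It gave 0.56 ± 0.36 on day 1 (adjusted p = 0.238), 0.17 ± 0.36 on day 7 (adjusted p = 0.707) and -0.31 ± 0.36 on day 60 (adjusted p = 0.509). With standard errors of either size, the values do not show that Rgs5 was unchanged.

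Measured within each library and per length of exon, Pdgfrb stood at 0.331 and 0.787 of the level of Rgs5 in sham. The ratio was 3.63 and 3.97 on day 1, 1.82 and 10.9 on day 3, 28.3 and 56.7 on day 7, 18.7 and 32.8 on day 21, and 10.0 and 29.1 on day 60. All 10 stroke libraries exceeded both sham libraries in this ratio, which needs no scaling between libraries. Pdgfrb made up 2.73% and 4.0% of the summed level per length of the 10 markers in sham, against 50.8% and 51.2% on day 7. Myh11 and Tagln together made up 41.5% and 49.0% in sham and 1.72% and 1.69% on day 7. Vtn held 34.3% to 76.5% in every library, so the make-up of the marker set in sham was led by Vtn and the contractile genes and on day 7 by Pdgfrb and Vtn.

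**Figure D3:**
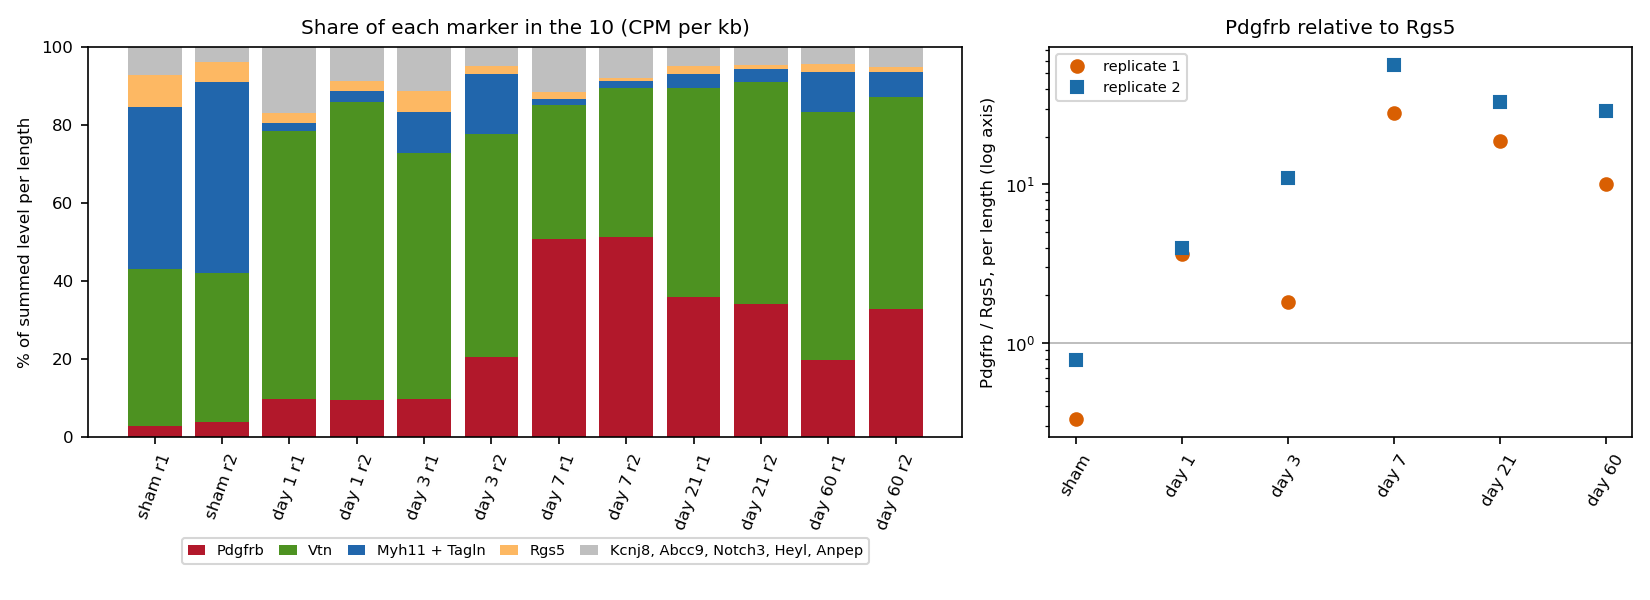
Left, percent of the summed level per length (CPM per kb of exon) of the 10 markers in each library, with r1 and r2 for the replicates, and right, the ratio of Pdgfrb to Rgs5 per length on a log axis with a line at 1. The red share of Pdgfrb is 2.73% and 4.0% in sham and 50.8% and 51.2% on day 7, and the ratio is under 1 only in the sham libraries.

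Kcnj8 encodes Kir6.1, the pore of the ATP-sensitive potassium channel of mural cells, and Abcc9 encodes SUR2, its sulfonylurea receptor subunit. The genes are neighbours on the minus strand of chromosome 6 (chr6:142564837-142571614 and chr6:142587862-142702315), with 16247 bases between them, and their promoters are those printed above. Kcnj8 stood at 8.0 and 3.10 CPM in sham, 161 and 56.8 on day 1, 52.2 and 8.78 on day 3, 12.3 and 10.6 on day 7, 9.97 and 7.38 on day 21, and 20.4 and 18.9 on day 60. Both day 1 libraries were above all other libraries. Kcnj8 rose on day 1 by a log2 fold change of 4.31 ± 0.86 over sham (adjusted p = 0.00612), which was 3.32 without day 1 replicate 1 and 5.13 without sham replicate 1. Days 7 and 21 gave 1.06 ± 0.77 (adjusted p = 0.289) and 0.66 ± 0.77 (adjusted p = 0.541).

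On day 3 Kcnj8 passed with 2.47 ± 0.80 (adjusted p = 0.0385), and this call rested on replicate 1, without which the log2 fold change was 0.63 ± 0.65 (adjusted p = 0.519). Without replicate 2 of that day it was 3.17 ± 0.65 (adjusted p = 0.00954). The call was also lost without sham replicate 1 (adjusted p = 0.0606), without sham replicate 2 (adjusted p = 0.199) and with any 1 library of days 7, 21 and 60 left out (adjusted p 0.0518 to 0.0565). On day 60 Kcnj8 gave 1.84 ± 0.78 (adjusted p = 0.0988). With the replicate block this value was 2.05 ± 0.55 (adjusted p = 0.0125), and it also passed without day 3 replicate 1 (adjusted p = 0.0420) or day 3 replicate 2 (adjusted p = 0.0412).

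Abcc9 stood at 1.43 and 1.38 CPM in sham, 47.1 and 39.0 on day 1, 43.7 and 7.99 on day 3, 27.3 and 30.2 on day 7, 11.5 and 14.3 on day 21, and 9.16 and 27.2 on day 60. Every stroke library lay above both sham libraries. Abcc9 rose at all 5 times, by 4.94 ± 0.82 on the log2 scale on day 1 (adjusted p = 0.00305), 4.2 ± 0.79 on day 3 (adjusted p = 0.00372), 4.36 ± 0.80 on day 7 (adjusted p = 0.00176) and 3.70 ± 0.77 on day 60 (adjusted p = 0.00633). The day 3 value was 2.47 ± 0.56 without replicate 1 (adjusted p = 0.0174) and 4.88 ± 0.58 without replicate 2 (adjusted p = 0.00113), and that of day 60 was 2.71 without replicate 2 of that day (adjusted p = 0.0415). The value of 3.2 ± 0.76 on day 21 (adjusted p = 0.0101) did not pass without sham replicate 1 (adjusted p = 0.0611) or sham replicate 2 (adjusted p = 0.0651). Per length, Abcc9 was lower than Kcnj8 in every library. Its level was 0.0545 and 0.135 of that of Kcnj8 in sham, against 0.675 and 0.865 on day 7. The other channel pair of this family, Kcnj11 (Kir6.2) and Abcc8 (SUR1), which neurons use, was higher in 0 of 2 genes at any time. Abcc8 fell on days 3 and 7, with a log2 fold change of -5.79 ± 1.68 on day 7 (adjusted p = 0.0185) that did not pass without sham replicate 2 or either day 7 library (adjusted p 0.0850 to 0.116). Kcnj11 stood at 0.403 and 0.279 CPM on day 7, against 10.9 and 11.9 CPM in sham, a log2 fold change of -5.09 ± 1.08 (adjusted p = 0.00378). Of 8 neuronal markers, 7 fell on day 1 and all 8 at the other 4 times, and their part in the fall of Kcnj11 was not tested. At these 5 times 13.9% to 19.8% of all tested genes were called lower.

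Vtn encodes vitronectin, an adhesive matrix protein that brain pericytes make (chr11:78499091-78502324, plus strand). Its levels were 88.5 and 91.0 CPM in sham, 645 and 597 on day 1, 422 and 261 on day 3, 416 and 549 on day 7, 461 and 544 on day 21, and 483 and 461 on day 60. The lowest stroke library was well above sham, and the 6 libraries of days 7 to 60 lay between 416 and 549 CPM. Vtn rose at all 5 times, by 2.79 ± 0.36 on the log2 scale on day 1 (adjusted p = 0.00132), 1.93 ± 0.35 on day 3 (adjusted p = 0.00314), 2.43 ± 0.36 on day 7 (adjusted p = 0.000562), 2.49 ± 0.36 on day 21 (adjusted p = 0.000864) and 2.40 ± 0.36 on day 60 (adjusted p = 0.00116). These 5 calls held with any 1 of the 12 libraries left out. Between neighbouring times Vtn passed in none of the 4 comparisons, the lowest adjusted p being 0.241 for day 3 over day 1.

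Beside Kcnj8, Abcc9 and Vtn, endothelial markers were high on day 1, when 6 of 12 rose with a median log2 fold change of 1.81. Of these markers 3 rose on day 3, 0 on days 7 and 21, and 1 on day 60, and none fell at any time. The share of all tested genes called higher was 16.7%, 18.0%, 23.2%, 17.8% and 16.8% on days 1, 3, 7, 21 and 60. The day 1 libraries differed in the same direction, with 161 and 56.8 CPM for Kcnj8 and 0.930% and 0.683% for the endothelial share. On day 7, when Abcc9 and Vtn were also above sham, endothelial markers took 0.0679% and 0.0923% of counts, against 0.159% and 0.301% in sham. Fibroblast markers took 8.77% and 20.5% on day 7, against 0.0143% and 0.0185% in sham. The part of other vessel cells or of fibroblasts in the levels of day 1 and day 7 was not tested.

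Of 16 other pericyte genes, 8 rose on day 1, 7 on day 3, 8 on day 7, 5 on day 21 and 6 on day 60, and 0 fell at any time. The share of all tested genes called higher was 16.7%, 18.0%, 23.2%, 17.8% and 16.8% at these times. The median log2 fold change of the 16 was 2.19 on day 1, 1.31 on day 3, 2.17 on day 7, 0.74 on day 21 and 1.40 on day 60. P2ry14, Slc6a20a and Tbx18 rose at all 5 times, and Higd1b, Atp13a5 and Cox4i2 were called at none. The calls of Slc6a20a on days 1, 3 and 7 and of P2ry14 on day 1 were each lost without at least 1 library. In sham the means of Higd1b, Atp13a5 and Cox4i2 were 4.83, 8.40 and 3.48 CPM. They were 6.33, 40.7 and 6.21 CPM on day 1 and, below sham, 1.23, 3.55 and 1.31 CPM on day 7. The list thus did not move in 1 direction on day 7. Tbx18, a transcription factor of mural cells and of their embryonic precursors, stood at 123 and 81.6 CPM on day 7, against 1.2 and 1.97 CPM in sham, a log2 fold change of 5.98 ± 0.51 (adjusted p = 4.6e-05). On day 60 it was 102 and 85.8 CPM, a log2 fold change of 5.86 ± 0.51 (adjusted p = 7.56e-05). P2ry14, a receptor for UDP-sugars, reached 4.80 ± 0.51 on day 7 (adjusted p = 0.000112). Slc6a20a, a proline transporter, reached 5.30 ± 0.91 on day 21 (adjusted p = 0.00209). Ggt1, gamma-glutamyltransferase, was among the 3 largest on day 1, with 3.2 ± 0.65 (adjusted p = 0.00648). Tbx18 and Slc6a20a are also known from meningeal fibroblasts.

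**Figure D4:**
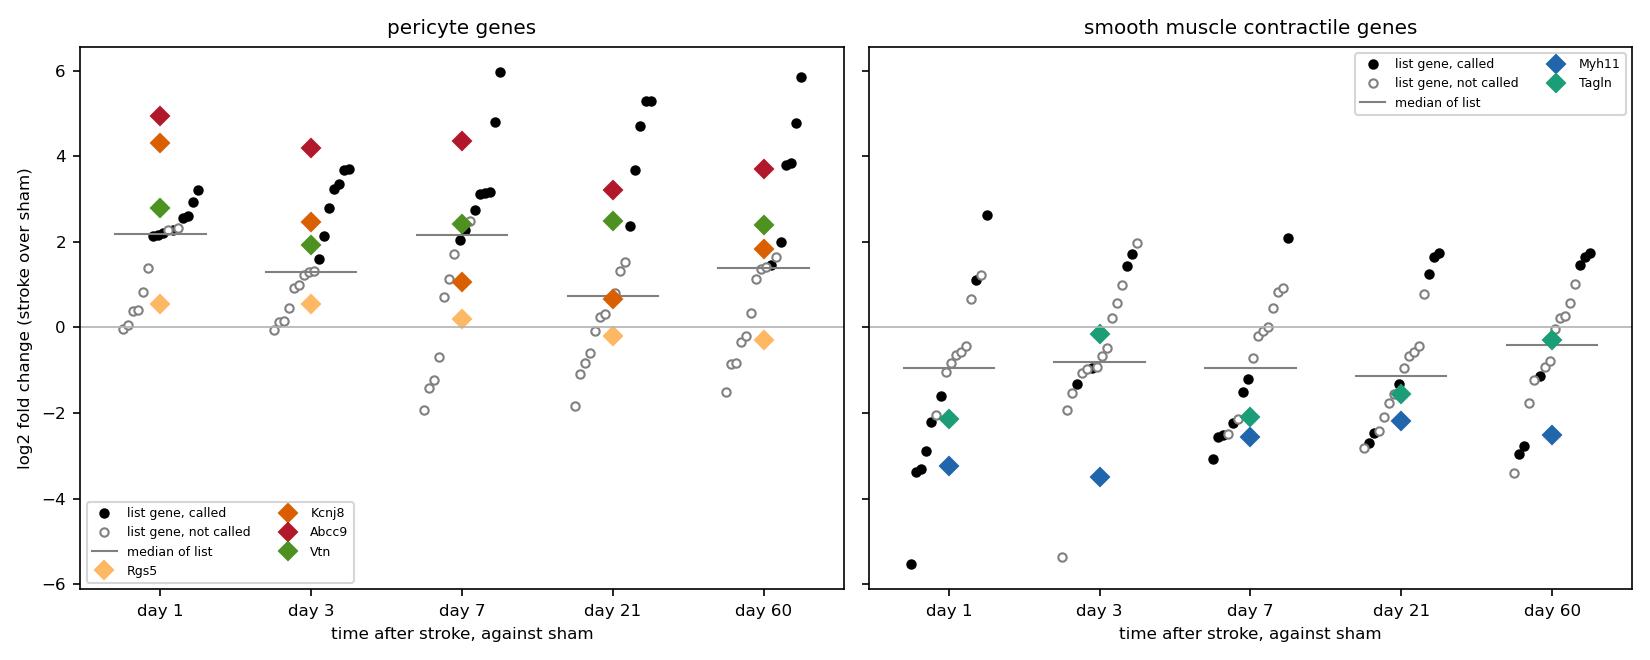
Log2 fold change over sham at each time for 16 other pericyte genes (left) and 16 other smooth muscle contractile genes (right), with filled points for genes called at an adjusted p under 0.05, open points for the others, a bar for the median of each list and diamonds for the mural markers of the same role. On the left no filled point lies below 0, and on the right points lie on both sides, with Myh11 below the median of the list at each time.

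Myh11 encodes the smooth muscle myosin heavy chain, the marker most restricted to differentiated smooth muscle (chr16:14194535-14291372, minus strand). Its levels were 57.1 and 156 CPM in sham, 10.8 and 11.9 on day 1, 15.3 and 3.74 on day 3, 15.9 and 20.5 on day 7, 19.7 and 27.3 on day 21, and 15.6 and 21.4 on day 60. All 10 stroke libraries lay below both sham libraries, which themselves differed by more than any stroke group but day 3. Myh11 fell at all 5 times, with log2 fold changes over sham of -3.24 ± 0.68 on day 1 (adjusted p = 0.00713), -3.50 ± 0.69 on day 3 (adjusted p = 0.00444), -2.56 ± 0.66 on day 7 (adjusted p = 0.0104), -2.18 ± 0.65 on day 21 (adjusted p = 0.0262) and -2.53 ± 0.65 on day 60 (adjusted p = 0.0163).

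The call on day 3 held with any 1 library left out, with -4.88 without day 3 replicate 1 and -2.88 without day 3 replicate 2, and the direction held in every case. The day 1 call did not pass without day 1 replicate 1 (adjusted p = 0.0523). Without sham replicate 2, the sham library with the higher Myh11, the log2 fold change was -2.34 on day 1 (adjusted p = 0.0475) and -2.60 on day 3 (adjusted p = 0.0311), and it was -1.66 on day 7 (adjusted p = 0.0922), -1.28 on day 21 (adjusted p = 0.206) and -1.62 on day 60 (adjusted p = 0.124). The day 7 call was also lost without day 7 replicate 1 (adjusted p = 0.0716) or replicate 2 (adjusted p = 0.0501). Likewise the day 21 call was lost without day 21 replicate 1 (adjusted p = 0.127) or replicate 2 (adjusted p = 0.0903), and the day 60 call without day 60 replicate 1 (adjusted p = 0.0800) or replicate 2 (adjusted p = 0.0668).

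Tagln, the actin-binding protein SM22α of smooth muscle (chr9:45929619-45936058, minus strand), was low on days 1, 7 and 21 and close to sham on day 3. It stood at 73.8 and 73.5 CPM in sham, 14.5 and 18.9 on day 1, 65.3 and 68.2 on day 3, 16.3 and 18.4 on day 7, 26.0 and 24.2 on day 21, and 73.4 and 47.4 on day 60. The 2 libraries of a group differed most on day 60. Tagln fell on days 1, 7 and 21, with log2 fold changes over sham of -2.14 ± 0.31 (adjusted p = 0.0019), -2.09 ± 0.31 (adjusted p = 0.000611) and -1.55 ± 0.31 (adjusted p = 0.00423). Days 3 and 60 did not pass, with -0.14 ± 0.30 (adjusted p = 0.747) and -0.29 ± 0.30 (adjusted p = 0.495). Exons of the antisense gene Gm48529 overlap 62.4% of the exon length of Tagln and those of Pcsk7, on the opposite strand, 5.43%. No strand setting is given in the sources used here, so reads of these genes may not be told apart. The same holds for 6.03% of the exon length of Notch3 and 1.89% of that of Abcc9, and, among the list genes described, for 31.8% of Hes5, 20.6% of Tbx18, 16.3% of Smtn, 13.8% of Slc6a20a and 10.1% of Rgs16, each by its largest overlap with a gene on the opposite strand. Other list genes described had smaller overlaps of this kind, such as 5.56% of Dll4 and 4.865% of Mylk, and these are not all given.

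Of 16 other contractile genes, 2 rose and 6 fell on day 1, 2 rose and 2 fell on day 3, 1 rose and 6 fell on day 7, and 3 rose and 3 fell at each of days 21 and 60. The share of all tested genes called lower at these times was 13.9%, 14.2%, 19.8%, 15.4% and 14.8%, and the falls on days 3, 21 and 60 lay near it. The share called higher was 16.7%, 18.0%, 23.2%, 17.8% and 16.8%. Their median log2 fold change was negative at each time, between -1.13 on day 21 and -0.41 on day 60. Acta2, smooth muscle α-actin, fell at all 5 times. It stood at 31.0 and 31.1 CPM on day 1, against 272 and 347 CPM in sham, a log2 fold change of -3.32 ± 0.32 (adjusted p = 0.000461). Acta2 was higher on day 3, with 162 and 159 CPM, and the day 3 change of -0.95 ± 0.30 (adjusted p = 0.0345) did not pass without either sham library, either day 3 library or either day 7 library (adjusted p 0.0542 to 0.169). On days 7, 21 and 60 the log2 fold change of Acta2 was -2.23 ± 0.31, -2.70 ± 0.32 and -2.78 ± 0.32. Lmod1, the actin nucleator leiomodin, stood at a mean of 0.102 CPM on day 1, against 5.44 CPM in sham, a change of -5.54 ± 1.10 (adjusted p = 0.00597). Smtn, smoothelin, rose at all 5 times, but each of its 5 calls was lost without sham replicate 1 (adjusted p 0.0533 to 0.204). Mylk rose on day 60, with 140 and 147 CPM against 36.1 and 49.8 CPM in sham, a log2 fold change of 1.74 (adjusted p = 0.0065). This change was 1.53 without sham replicate 1, and the call was lost. Tpm2, Casq2 and Myocd were called at no time.

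Notch3 encodes the Notch receptor of mural cells (chr17:32120820-32166852, minus strand), and Heyl a transcription factor that Notch3 switches on (chr4:123233556-123249875, plus strand). Notch3 stood at 9.02 and 9.71 CPM in sham, 7.78 and 9.70 on day 1, 26.5 and 2.93 on day 3, 26.4 and 23.7 on day 7, 13.5 and 13.4 on day 21, and 10.8 and 9.69 on day 60. Both day 7 and both day 21 libraries were above sham, and the day 3 libraries lay on either side of it. On day 7 the log2 fold change was 1.42 ± 0.74 (adjusted p = 0.145). Because all groups share the estimate of the spread, leaving out day 3 replicate 1 or replicate 2 gave 1.32 ± 0.34 (adjusted p = 0.0113) and 1.32 ± 0.32 (adjusted p = 0.00931). On day 3 the value was 0.64 ± 0.73 (adjusted p = 0.530) with both libraries, -1.72 (adjusted p = 0.0267) without replicate 1 and 1.42 (adjusted p = 0.0240) without replicate 2, so no direction can be given for Notch3 at that time.

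Heyl stood at 15.7 and 8.94 CPM in sham, 35.2 and 22.4 on day 1, 32.8 and 9.82 on day 3, 165 and 86.3 on day 7, 22.0 and 10.9 on day 21, and 8.65 and 9.32 on day 60. Both day 7 libraries were above all others, and those of days 3, 21 and 60 overlapped with sham. Heyl rose on day 7 by 3.35 ± 0.65 on the log2 scale (adjusted p = 0.00239). On day 1 it gave 1.23 ± 0.60 (adjusted p = 0.146) and, with the replicate block, 1.25 ± 0.37 (adjusted p = 0.0210). Days 3, 21 and 60 gave 0.79 (adjusted p = 0.337), 0.42 (adjusted p = 0.623) and -0.45 (adjusted p = 0.599).

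Of 13 other genes of the Notch pathway, 7 rose and 1 fell on day 1, 3 rose and 2 fell on day 3, 4 rose and 2 fell on day 7, 3 rose and 2 fell on day 21, and 2 rose and 3 fell on day 60. Of all tested genes, 30.5%, 32.2%, 43.0%, 33.2% and 31.5% were called in either direction at these times. Among ligands, Dll4, which sprouting endothelium carries, rose on day 1 by 4.70 ± 0.65 (adjusted p = 0.00163), and Jag1 rose at all 5 times, with 3.87 ± 0.54 on day 7 (adjusted p = 0.000451). Jag2 was called at no time. Among receptors, Notch4 of endothelium rose on day 1 by 3.04 ± 0.60 (adjusted p = 0.00591). Notch2 rose at all 5 times, with 4.45 ± 0.40 on day 7 (adjusted p = 5.58e-05) and 2.63 ± 0.37 on day 60 (adjusted p = 0.000861). Among targets, Hes1 rose on day 1 by 2.46 ± 0.46 (adjusted p = 0.00463), and Hes5, a target in neural progenitors and astrocytes, fell at all 5 times, with -6.11 ± 0.83 on day 7 (adjusted p = 0.00038). The calls of Hes5 on days 1, 3 and 60 were each lost without at least 1 library. That of day 1 was also lost with no filter on low counts (adjusted p = 0.0502). Jag1 and Notch2 each lost their calls on days 1 and 3 without at least 1 library. The fall of Hes5 moved with the astrocyte markers, of which 8 of 10 fell on day 7. Endothelial markers moved with Dll4 and Notch4 on day 1. The part of either cell type was not tested.

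Of the 5 other PDGF genes, Pdgfra, the second PDGF receptor and a fibroblast and oligodendrocyte precursor gene, rose at all 5 times. It stood at 545 and 524 CPM on day 7, against 12.2 and 20.8 CPM in sham, a log2 fold change of 5.01 ± 0.51 (adjusted p = 9.57e-05). On day 1 the change was 1.77 ± 0.45 (adjusted p = 0.0149) and did not pass without sham replicate 1 (adjusted p = 0.111) or day 1 replicate 1 (adjusted p = 0.0656). Pdgfb, the endothelial ligand of PDGFRβ, was called at no time, with 102 and 46.7 CPM on day 1, 17.5 and 9.24 CPM on day 7 and 30.3 and 30.5 CPM in sham. Of the ligands, Pdgfc rose on day 7 by 3.69 ± 0.66 (adjusted p = 0.00152). Pdgfd, a further ligand of PDGFRβ, rose at days 7, 21 and 60, with 2.54 ± 0.51 on day 60 (adjusted p = 0.00516). Without sham replicate 1 its calls on days 7 and 21 did not pass (adjusted p = 0.114 and 0.0683), and day 7 also not without day 7 replicate 2 (adjusted p = 0.0659). In all, 1 of the 5 rose and 1 fell on day 1, 1 rose on day 3, 3 rose and 1 fell on day 7, and 2 rose and 1 fell at each of days 21 and 60, where 30.5%, 32.2%, 43.0%, 33.2% and 31.5% of all tested genes were called on days 1, 3, 7, 21 and 60.

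Rgs5 was also set beside 7 other R4-family RGS genes, which shorten G-protein signals in many cell types. Of these, 3 rose and 2 fell on days 1 and 3, 5 rose and 2 fell on day 7, and 2 rose and 2 fell on days 21 and 60, beside 30.5%, 32.2%, 43.0%, 33.2% and 31.5% of all tested genes called on days 1, 3, 7, 21 and 60. Rgs16 rose at all 5 times, with 5.01 ± 0.57 on day 7 (adjusted p = 0.00017), and so did Rgs1, a leukocyte gene, with 7.98 ± 1.11 on day 3 (adjusted p = 0.000878). Rgs4 and Rgs8, which neurons express, fell at all 5 times, Rgs4 with a log2 fold change of -3.58 ± 0.60 on day 7 (adjusted p = 0.00113) and Rgs8 with -4.51 ± 0.68 on day 1 (adjusted p = 0.00225). Some of these calls were lost without at least 1 library. They were those of Rgs1 on days 1 and 60, Rgs4 on days 1, 3 and 21, and Rgs8 on days 21 and 60. Of 10 infiltrating leukocyte markers, 7 rose on day 3 and 0 fell, beside 18.0% of all tested genes called higher. The part of leukocytes in the level of Rgs1 was not tested.

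In the lists of other pericyte, contractile, Notch, PDGF, RGS and channel genes, leaving aside the markers of other cell types, 13 genes were called in the same direction at all 5 times. They gave 65 calls against sham, of which 40 passed with any 1 of the 12 libraries left out and 25 were lost without at least 1 of them, 24 of these without sham replicate 1. None changed direction. Tbx18 and Rgs16 kept all 5 calls, and Smtn kept none. Some values given above moved by over 1.5-fold with 1 library left out while still passing. Without day 1 replicate 1, day 1 gave 3.81 for Dll4, 2.39 for Notch4 and 1.62 for Hes1. Without day 1 replicate 2 it gave -6.69 for Lmod1 and -5.99 for Rgs8. Without sham replicate 1, Rgs16 on day 7 gave 5.61. Without sham replicate 2, Ggt1 on day 1 gave 3.98, Jag1 on day 7 gave 4.62 and Slc6a20a on day 21 gave 5.97. Rgs1 on day 3 gave 8.64 without sham replicate 1 and 7.38 without sham replicate 2. Leaving out either library of the day, Rgs1 on day 3 gave 6.34 and 8.65 and Hes5 on day 7 gave -7.23 and -5.31. Without replicate 2 of the day, Slc6a20a on day 21 gave 4.38 and Pdgfd on day 60 gave 1.86.

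Neighbouring times were compared in the same fit. Tagln alone among the 10 rose on day 3 over day 1, by 2.0 ± 0.31 (adjusted p = 0.00729), where 3.57% of all genes were called in either direction and 3.09% called higher. Without day 1 replicate 1 this call did not pass (adjusted p = 0.0651). With the replicate block 3 markers passed, with Anpep at 1.31 (adjusted p = 0.0457) and Kcnj8 at -1.98 ± 0.54 (adjusted p = 0.0492) as further ones. Kcnj8 gave -1.84 ± 0.78 without the block (adjusted p = 0.274) and Anpep 1.39 ± 0.46 (adjusted p = 0.155). Both also passed without day 3 replicate 1 (adjusted p = 0.0475 for Kcnj8 and 0.0458 for Anpep).

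On day 7 over day 3, 3 of the 10 rose and 1 fell, where 6.29% of all genes were called, 3.06% higher and 3.22% lower. Pdgfrb rose by 3.08 ± 0.44 (adjusted p = 0.0112), Anpep by 3.04 ± 0.49 (adjusted p = 0.0127) and Heyl by 2.56 ± 0.63 (adjusted p = 0.0406), and Tagln fell, with a log2 fold change of -1.94 ± 0.31 (adjusted p = 0.0126). Both libraries of day 7 lay outside the range of day 3 for each of these 4 genes. Without day 3 replicate 2 Anpep gave 3.81 (adjusted p = 0.0160). None of the 4 passed without day 7 replicate 1 or without day 7 replicate 2, where 1 and 0 of all tested genes were called, against 983 with both libraries. Without day 3 replicate 1, Tagln passed, Pdgfrb, Anpep and Heyl did not (adjusted p = 0.0532 for each), and Notch3 passed with 3.04 ± 0.47 (adjusted p = 0.0380), where it gave 0.78 (adjusted p = 0.557) with both day 3 libraries and -0.0986 (adjusted p = 0.916) without day 3 replicate 2. The call of Heyl was lost with any 1 of 10 libraries left out (adjusted p 0.0532 to 0.215). Fibroblast markers moved with Pdgfrb, Anpep and Heyl but not with Tagln, since 6 of the 13 rose on day 7 over day 3 and 0 fell.

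On day 21 over day 7, edgeR called 0 of the 10 markers and 69 genes in all (0.441%, of which 0.243% higher and 0.198% lower), while 3 of the 10 had an unadjusted p under 0.05. Heyl was the closest, with -2.93 ± 0.64 (adjusted p = 0.0804), and it passed with the replicate block (-2.94 ± 0.39, adjusted p = 0.00584), with DESeq2 (adjusted p = 0.000244) and without day 3 replicate 1 (adjusted p = 0.0474) or day 3 replicate 2 (adjusted p = 0.0479). Pdgfrb gave -1.08 ± 0.42 (adjusted p = 0.281) and Anpep -1.23 ± 0.46 (adjusted p = 0.267), with both libraries of day 21 below those of day 7 for each. On day 60 over day 21, edgeR called 0 of the 10 and 0 genes in all (0.00%), with 1 marker and 847 genes at an unadjusted p under 0.05. That marker was Tagln, with 1.26 ± 0.30 (adjusted p = 0.453), which DESeq2 called.

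Profiles across the 12 libraries were compared by the root mean square difference of centred log2 CPM over 9880 genes of at least 10 CPM on average. The genes most like Pdgfrb were Ptk7 (0.398), Cped1 (0.475), Slc39a14 (0.479), Pear1 (0.485) and Leprel2 (0.513), where the median gene differed by 2.09. Those most like Rgs5 were Pank3 (0.278), Cdyl (0.281), Pdik1l (0.285), Stom (0.286) and Siah2 (0.312), against a median of 0.913. Those most like Myh11 were Kcnab1 (0.475), Dnajc6 (0.566), Pip5k1c (0.589), Rps6ka2 (0.60) and Trak1 (0.603), against a median of 1.48. None of the 15 is another mural marker of the set.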

How the data were processed

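RNA of 12 libraries in 6 groups of 2 was counted per gene by the authors, who deposited raw counts, 1 file per library and 1 table of the series, which were identical in 189288 of 189288 values. Per the submitters' processing notes the build was mm10 and the tools included HTSeq 0.6.1 and Bowtie2 2.3.4.2, while annotation, strand setting and any gene filter are not given in the sources used here. The 10 markers and all gene lists were chosen with earlier results of these data known. Counts were tested in R 4.3.3 with edgeR 4.0.16 (filterByExpr with a minimum count of 10, TMM factors 0.689 to 1.22, 1 quasi-likelihood fit of all libraries, 6 residual degrees of freedom), with 5 times against sham and 4 pairs of neighbouring times. A standard error is the log2 fold change over the square root of F. Gene positions and exon lengths come from GENCODE M21. Alternatives were DESeq2 1.42.0 (size factors, and its Wald test), no filter on low counts, the replicate number as a block and each library left out. The gap between the replicates of a group, gene by gene, had a correlation of 0.319 to 0.713 with that of another group, over 0.1 for 15 of 15 pairs of groups. The replicate number thus went with a difference that the groups share. The main edgeR fit has no term for it, and its values and calls leave it unmodelled. Only the replicate block takes it in. From each list the text draws on the 3 called genes with the largest change at a time and describes some of them.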

Additional observations from a re-analysis of the deposited data

Results flagged for a closer look

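In 5 cases a marker differed between neighbouring times after stroke by the test of that difference in edgeR's quasi-likelihood fit. Heyl was higher on day 7 than on day 3 by 2.56 ± 0.63 on the log2 scale (adjusted p = 0.0406), with 165 and 86.3 CPM on day 7 and 32.8 and 9.82 CPM on day 3. Pdgfrb was higher by 3.08 ± 0.44 (adjusted p = 0.0112) and Anpep by 3.04 ± 0.49 (adjusted p = 0.0127) in the same comparison. Tagln was higher on day 3 than on day 1 by 2.0 ± 0.31 (adjusted p = 0.00729) and lower on day 7 than on day 3, with a log2 fold change of -1.94 ± 0.31 (adjusted p = 0.0126). The calls of day 7 over day 3 were lost without either library of day 7.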

How the results depend on the processing

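Of 31 calls of the 10 markers against sham, 25 passed with any 1 of the 12 libraries left out, 6 were lost without at least 1 of them, and 0 changed direction. All 31 passed under DESeq2 size factors, DESeq2's Wald test, no filter on low counts and the replicate block. With the replicate block, the calls of Kcnj8 on day 60 over sham, Heyl on day 1 over sham and on day 21 over day 7, and Kcnj8 and Anpep on day 3 over day 1 were gained, as given above, and it changed no other call of the 10. Size factors moved the median log2 fold change of all genes by -0.0883 to -0.135 against sham.

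For all genes, DESeq2 called 1426 and the block 1313 on day 3 over day 1 (558 in the edgeR fit), 2618 and 2853 on day 7 over day 3 (983), 1047 and 635 on day 21 over day 7 (69), and 114 and 21 on day 60 over day 21 (0). Of the 10 markers the block called 3 on day 3 over day 1 (1 without it). On day 21 over day 7, DESeq2 and the block each called 1, Heyl, and on day 60 over day 21 DESeq2 called 1, Tagln. The cause was not tested.

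Leaving out 1 library gave 1954 to 5037 genes called against sham on day 1, 2941 to 5315 on day 3, 4476 to 6949 on day 7, 2628 to 5593 on day 21 and 2654 to 5317 on day 60. Between neighbouring times it gave 239 to 557, 0 to 1412, 2 to 228 and 0 to 2 genes, in order of time, and 0 to 3, 0 to 4 and 0 to 1 markers in the first 3 of these comparisons. The uncalled log2 fold changes over sham that changed sign were those of Rgs5 on day 3 (-0.85 to 1.16), day 7 (-0.22 to 0.53), day 21 (-0.72 to 0.13) and day 60 (-0.77 to 0.0096), Notch3 on day 1 (-0.41 to 0.0017), day 3 (-1.72 to 1.42) and day 60 (-0.059 to 0.20), and Heyl on day 3 (-0.37 to 1.34), day 21 (-0.29 to 0.88) and day 60 (-0.81 to 0.0079). So did Notch3 on day 7 over day 3 (-0.099 to 3.04). Depth was lowest in day 3 replicate 1, with 13006008 counts, and limits the precision of low levels in the first replicates.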

Other observations

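Some markers of other cells that a sort can carry along also differed from sham. Of all tested genes, 16.7%, 18.0%, 23.2%, 17.8% and 16.8% were called higher on days 1, 3, 7, 21 and 60. The shares called lower were 13.9%, 14.2%, 19.8%, 15.4% and 14.8%. A count of 1 of 8 markers does not exceed these shares. Of 8 microglia markers, 0 rose and 1 fell on day 1, 4 rose on day 3, 6 on day 7 and 2 on day 21, and 2 fell on day 60. They took 0.522% and 0.337% of the counts on day 3 and 0.594% and 0.301% on day 7, against 0.0635% and 0.0737% in sham. Of 10 infiltrating leukocyte markers, 3, 7, 4, 5 and 5 rose on days 1, 3, 7, 21 and 60, and 1 fell on day 7. Of 8 oligodendrocyte lineage markers, which include the pericyte gene Cspg4, 3 fell on day 1, 1 on day 3, 4 on day 7, 3 on day 21 and 4 on day 60. At each of days 3 and 7, 1 rose, which was Cspg4 both times. The mean of Cspg4 was 9.84 CPM in sham, 30.15 on day 3 and 87.4 on day 7. The 8 neuronal markers took 0.0139% and 0.00734% of the counts on day 7, against 0.550% and 0.528% in sham.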
